A study of Mus musculus with 13 samples.

Results

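Toll-like receptor genes were followed in mouse lymphoid tissue profiled with the split-pool Parse single-cell method. The 10 genes were Tlr1, Tlr2, Tlr3, Tlr4, Tlr6, Tlr7, Tlr8, Tlr9, Tlr12 and Tlr13, each found once by its symbol among the 57010 genes of the deposited gene lists. The rule that chose them uses gene names alone. Tlr5 and Tlr11, the family members outside this choice, are given beside them where they add to a comparison.

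The Parse whole transcriptome (WT) library pooled 20 tissue samples in 9 sublibraries. Of these, 4 samples, numbered 1 to 4 here, are thymic lobes from female C57BL/6N mice aged 2 months, with 2 lobes from each of 2 mice. A smaller Parse Mini library of 2 sublibraries held 4 thymic lobe samples, named T-1-A, T-1-B, T-2-A and T-2-B, again 2 lobes from each of 2 such mice. An SD over 4 lobes in either library is therefore one over lobes of 2 mice, not over 4 animals. The 16 remaining samples of the WT library are called the other wells. For these the labels give thymus and spleen as tissues, control and chronic stress as treatments and young and adult mice, but not which well had which, so the 16 were used as blocks and never as treatment groups. The study's text counts these wells as non-thymic, which the labels do not say for any single well, and 2175 of their cells fell in a thymocyte-like class. No genotype other than the C57BL/6N strain is given for any sample, and which lobes share a mouse is not shown by the sample names.

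Each receptor pairs an outer part that binds a microbial molecule with an inner part that recruits signalling adaptors. Tlr1, Tlr2, Tlr4 and Tlr6 encode receptors of the cell surface. TLR2 joins TLR1 or TLR6 to detect bacterial lipoproteins, and TLR4 detects lipopolysaccharide. Tlr3, Tlr7, Tlr8, Tlr9 and Tlr13 encode receptors of endosomes that detect nucleic acids, namely double-stranded RNA for TLR3, single-stranded RNA for TLR7 and TLR8, DNA with unmethylated CpG for TLR9 and bacterial ribosomal RNA for TLR13. Tlr11 and Tlr12 encode endosomal receptors for profilin of protozoa, and Tlr5 encodes the receptor for flagellin. In the spleen, marginal zone B cells, macrophages and dendritic cells are known for meeting microbial products early.

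Cells were sorted into classes by clustering on genes that excluded every Toll-like receptor and the 51 genes of a list of the signalling pathway, and classes are called X-like because their names rest on marker lists. The classes were still made from other genes of the same cells. In the other wells 79827 cells of 86786 barcodes were used, of which 10199 were left unnamed. A further 11254 B cells lay in 7 clusters drawn mostly from 1 sample each, and 13513 B cells were given no subset. Both groups entered no B cell subset and were left out when the class with the highest level was picked. Follicular B-like cells numbered 8926 and marginal zone B-like cells 1759. In the thymic wells of the WT library 35461 of 37474 cells used were T lineage cells, and in the Mini library 17796 of 18302 were. UMIs (unique molecular identifiers, 1 for each captured transcript molecule) per sample ran from 5405078 to 91172408 in the other wells, from 30450786 to 124106974 in the WT thymic wells and from 28057164 to 33264104 in the Mini library. The same combination of well barcodes occurred in more than 1 sublibrary for 34.9% of the WT barcodes and 13.5% of the Mini barcodes, and each was kept as its own cell. Levels are given in CPM, the UMIs of a gene summed over the cells of a class and scaled to their UMIs outside ribosomal RNA, and shares of cells are shares with at least 1 UMI after thinning to 1000 UMIs a cell. Cells under that depth were left out of the shares, which kept 71981 of the 79827 cells of the other wells but only 840 of the 1222 neutrophil-like cells, so shares in neutrophil-like cells cover the deeper ones. Intervals on shares are 95% exact (Clopper-Pearson) intervals, and these intervals and the floor of 3 UMIs cover counting error only.

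Over all barcodes of the other wells, Tlr7 had 20170 UMIs and Tlr1 had 16034. Tlr4 followed with 8145 UMIs, Tlr9 with 6982 and Tlr6 with 3096, and Tlr12 had the fewest among the 10 genes at 552. In the thymic wells the order was different, since Tlr12 led with 1835 UMIs in the WT library and 754 in the Mini library, ahead of Tlr7 with 1286 and 628. In the same thymic wells Tlr3 had 74 and 37 UMIs and Tlr8 had 84 and 31. Tlr1 and Tlr6 lie side by side on chromosome 5, and 454 of the 50-base stretches in their annotated transcripts are identical, 13.6% of those of Tlr1 and 12.3% of those of Tlr6. UMIs of this pair could therefore be split between them, and values of Tlr1 and Tlr6 are uncertain to that extent. No other pair of the 12 receptor genes shared such a stretch. Tlr3 overlaps the antisense gene Gm45542 on chromosome 8, and since the strand setting of the counting is not given, reads of that overlap cannot be told apart.

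The gene starts of Tlr12 and Tlr11 are shown because both genes had their highest level in cDC1-like cells of the other wells, while Tlr12 had 1835 UMIs and Tlr11 had 27 in the WT thymic wells. Both windows are the 250 bases before the start of the gene in RefSeq (GRCm38.p6), Tlr12 at chr4:128618620-128618869 on the minus strand and Tlr11 at chr14:50357664-50357913 on the plus strand, each given 5′ to 3′ along its gene and outside the exons of its own gene.
Tlr12: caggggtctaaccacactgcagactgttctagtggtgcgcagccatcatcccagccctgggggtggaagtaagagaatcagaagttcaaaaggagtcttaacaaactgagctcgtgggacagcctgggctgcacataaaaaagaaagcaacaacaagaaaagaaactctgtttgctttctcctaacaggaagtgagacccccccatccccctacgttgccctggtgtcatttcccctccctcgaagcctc
Tlr11: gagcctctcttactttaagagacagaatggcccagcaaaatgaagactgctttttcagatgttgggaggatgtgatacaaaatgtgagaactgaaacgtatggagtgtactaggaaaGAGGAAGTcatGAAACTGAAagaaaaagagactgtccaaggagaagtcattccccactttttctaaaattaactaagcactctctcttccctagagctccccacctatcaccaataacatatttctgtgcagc
Capitals mark matches, on either strand, to 3 letter patterns searched in all such windows, namely GAAANNGAA, the core of the interferon-stimulated response element, GGAANTGAA, the core of a composite Ets and IRF element, and GAGGAAGT, a PU.1 pattern. The first and second can share letters in a sequence. The Tlr11 window held GAGGAAGT from 133 to 126 bases before the start and GAAANNGAA from 122 to 114 bases before it, and these matches do not overlap. The Tlr12 window held none of the 3 patterns. Of the other receptors, Tlr1 had GAGGAAGT from 23 to 16 bases before 1 of its starts, Tlr6 had GAAANNGAA on the opposite strand from 115 to 107 and from 109 to 101 bases before 1 of its starts, where the matches overlap, and Tlr8 had it on the opposite strand from 67 to 59 bases before its start. The windows of Tlr2, Tlr3, Tlr9 and Tlr13 held none. Those of Tlr2, Tlr3 and Tlr13 lay over annotated exons of their own gene for 159, 178 and 71 of the 250 bases. The Tlr1 window with the match did so for 5 bases, and the windows of Tlr1 and Tlr6 without a match for 211 and 49. Among 32851 windows of the same length, 7.13% held GAAANNGAA, 1.94% held GGAANTGAA and 2.44% held GAGGAAGT. Windows were found for 8 of the 10 genes, with Tlr4 and Tlr7 not in the table used.

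In the other wells the nucleic acid receptors were highest in different classes, Tlr7 and Tlr9 in pDC-like cells, Tlr8 in macrophage-like cells, Tlr13 in neutrophil-like cells and Tlr3 in cDC1-like cells. These levels are a description, with no test, and the leads of Tlr7, Tlr9 and Tlr13 changed with the processing, as given below. Tlr7 was highest in plasmacytoid dendritic cell-like (pDC-like) cells at 260 CPM, with a range over 14 samples from 56.3 to 404 and a median of 216. Monocyte-like cells followed at 253 CPM (106 to 416, median 258, 15 samples) and macrophage-like cells at 219 CPM (83.5 to 330, median 181, 15 samples). The ranges of these 3 classes overlap between samples, and macrophage-like and monocyte-like cells of the same samples are compared in the second pair. The median was higher in monocyte-like than in pDC-like cells, and without the upper UMI limit the monocyte-like class led. Marginal zone B-like cells had 168 CPM and cDC2-like cells 89.1 CPM. In erythroid-like cells Tlr7 was at 4.79 CPM (0 to 10.4 in 15 samples), and in T-like cells at 16.7 CPM.

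After thinning, a Tlr7 UMI was seen in 16.9% of pDC-like cells (13.6% to 20.7%), 16.2% of macrophage-like cells, 14.2% of monocyte-like cells and 12.7% of marginal zone B-like cells. The share in T-like cells was 1.12% (0.943% to 1.31%) and that in erythroid-like cells 0.251% (0.109% to 0.494%). Median depth before thinning was 3751 UMIs in pDC-like, 3304.5 in macrophage-like, 2434 in T-like cells, and 7350 in erythroid-like cells. Germinal centre B-like cells had 0.402% of cells with a Tlr7 UMI, below the T-like share, so the T-like share was not used as a background for Tlr7.

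Tlr9 was highest in pDC-like cells and was found in B cell, dendritic and monocyte classes, and it was low in neutrophil-like cells. The leading class was not stable, since by share of thinned cells it was the migratory DC-like class, by share without thinning the proliferating B-like class, and by CPM with classes drawn by a marker gate in each cell in place of clusters the transitional B-like class. Its level was 45.1 CPM in pDC-like cells (0 to 65.8, median 43.2), 40.2 CPM in transitional B-like cells (30.9 to 75.9, median 38.3, 9 samples) and 32.2 CPM in marginal zone B-like cells. Migratory DC-like cells had 37.8 CPM from only 25 UMIs. Follicular B-like cells had 23.0 CPM and germinal centre B-like cells 22.9 CPM, while plasma-like cells had 3.82 CPM. The cDC2-like, monocyte-like and cDC1-like cells were at 20.8, 20.2 and 18.0 CPM, close to the follicular B-like level, and macrophage-like cells at 13.4 CPM. Ranges of neighbouring classes in this order overlap down to the germinal centre B-like class. T-like cells had 0.861 CPM of Tlr9 and neutrophil-like cells 1.17 CPM.

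Tlr8 and Tlr13 were highest in the myeloid classes. Tlr8 was at 126 CPM in macrophage-like cells, 86.2 CPM in monocyte-like cells and 25.7 CPM in neutrophil-like cells, and no UMI of it was counted in the 1759 marginal zone B-like cells, which allows up to 0.537 CPM. Tlr13 was at 113 CPM in neutrophil-like cells (0 to 241, median 87.7), 104 CPM in monocyte-like cells (41.2 to 204, median 99.1) and 76.5 CPM in macrophage-like cells (22.5 to 138, median 64.7). The neutrophil-like and monocyte-like ranges overlap and the median was higher in monocyte-like cells, so the order of these classes is not larger than the spread between samples, and with the marker gate the monocyte-like class led. The cDC1-like and cDC2-like classes carried it too, at 42.5 and 42.7 CPM. No Tlr13 UMI was counted in the 490 pDC-like cells, which allows up to 1.56 CPM. A Tlr13 UMI was seen in 10.6% of thinned neutrophil-like cells and in 0.0385% of T-like cells, at median depths of 1300.5 and 2434 UMIs.

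Tlr3 was highest in cDC1-like cells, the dendritic cells known for presenting antigen of dying cells. It stood there at 212 CPM (31.5 to 424, median 188, 14 samples), and 18.7% of thinned cDC1-like cells (13.9% to 24.3%) held a UMI against 0.0462% of T-like cells, with median depths of 4531 and 2434 UMIs. The next class was marginal zone B-like cells at 15.4 CPM, followed by macrophage-like cells at 8.91 CPM from 26 UMIs. No neutrophil-like cell held a Tlr3 UMI, which allows up to 1.75 CPM.

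Tlr12 was also highest in cDC1-like cells, at 27.0 CPM from 33 UMIs, and pDC-like cells followed at 13.5 CPM from 26 UMIs. Several samples of both classes were at 0. T-like cells and thymocyte-like cells of the other wells had 4.27 and 4.38 CPM of Tlr12, above the 0.263 CPM of erythroid-like cells, which rested on 5 UMIs. Tlr11, the partner of TLR12 in profilin sensing, was at 212 CPM in cDC1-like cells and 24.5 CPM in cDC2-like cells, and no UMI of it was counted in pDC-like cells.

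Among the surface receptors, Tlr4 was highest in macrophage-like cells at 187 CPM (54.3 to 268, median 161) and in neutrophil-like cells at 145 CPM (10.0 to 333, median 98.9), whose ranges overlap. Proliferating B-like cells had 40.02 CPM, monocyte-like cells 38.3 CPM and marginal zone B-like cells 21.5 CPM. A Tlr4 UMI was seen in 12.4% of thinned macrophage-like cells and 0.585% of T-like cells. In the other wells Tlr2 was low in every class and highest in neutrophil-like cells at 25.1 CPM (43 UMIs), then monocyte-like cells at 17.5 CPM and macrophage-like cells at 16.1 CPM, with overlapping ranges.

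The partners of TLR2 were spread over more classes. Tlr6 was at 38.0 CPM in neutrophil-like cells, and the 17.2 CPM in basophil or mast cell-like cells rested on 8 UMIs. By share of cells without thinning the basophil or mast cell-like class led for Tlr6. Tlr1 was highest in marginal zone B-like cells at 100 CPM (51.1 to 249, median 97.6), with migratory DC-like, transitional B-like and follicular B-like cells at 80.0, 79.8 and 79.7 CPM. With the marker gate its level in marginal zone B-like cells was 55.8 CPM and the migratory DC-like class led, as it did by share of cells without thinning. It was also at 48.0 CPM in T-like cells (6.35 to 70.7 over 16 samples), so the T-like share of 3.48% is no low background for Tlr1. Erythroid-like cells had 4.84 CPM of Tlr1.

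Per kilobase of annotated exon, the leading receptor differed by class. The study found more unspliced than spliced transcripts in its Parse thymic data, so UMIs can also come from introns. Exon length leaves introns out, and the part of intron length in the order of receptors was not tested. In macrophage-like cells Tlr7 was at 53.7 CPM per kilobase, Tlr8 at 35.2, Tlr4 at 33.7 and Tlr13 at 17.8. In neutrophil-like cells Tlr13 and Tlr4 were level at 26.3 and 26.2 CPM per kilobase, with Tlr6 at 10.2. Marginal zone B-like cells had Tlr7 at 41.2, Tlr1 at 29.9 and Tlr9 at 9.26 CPM per kilobase. In pDC-like cells Tlr7 was at 63.8 and Tlr9 at 12.98 CPM per kilobase, and in cDC1-like cells Tlr11 was at 64.7, Tlr3 at 40.7 and Tlr12 at 8.49.

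Next, 5 pairs of classes were compared within samples, using edgeR's quasi-likelihood test on UMIs summed per sample and class with the sample as a block, and Benjamini-Hochberg adjustment over all genes tested. Samples with at least 10 cells of both classes entered. Fold changes are on the log2 scale, in the shrunken form that edgeR gives. The SE beside each was worked back from the test statistic and the fold change without shrinkage. At low counts a fold change over its SE therefore need not match the p-value. With the sample as a block, the p-values weigh the mean difference between classes against the variation left around it. They do not count the samples that go the same way. The deposited labels do not say whether these samples came from separate animals. Few receptors passed edgeR's filter on low counts, so those that missed it are given from the fit to all genes with at least 1 UMI, and this is said each time. In that fit Tlr9 was called in the fourth pair though it was higher in 8 samples and lower in 6. Its p-values are therefore not read as steadiness over samples.

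The first pair asked how marginal zone B-like cells, the B cells of the splenic blood filter, differ from follicular B-like cells. Tlr7, Tlr1 and Tlr9 were higher in marginal zone B-like cells, Tlr7 with the largest difference. Per sample, Tlr7 was at 0 to 252 CPM (median 97.2) in marginal zone B-like cells and 27.8 to 122 CPM (median 44.1) in follicular B-like cells over 13 samples. It was higher in 11 of 13 samples, though the ranges of the classes overlap between samples. The log2 fold change was 0.99 ± 0.0861 (edgeR, adjusted p = 5.6e-18). The 5 samples whose names begin with YD, with 106 to 402 marginal zone B-like cells each, had 142 to 252 CPM of Tlr7 in them and 73.2 to 122 CPM in follicular B-like cells. The 8 samples whose names begin with CVS had 10 to 53 such cells each, at 0 to 214 CPM, and 27.8 to 65.1 CPM of Tlr7 in follicular B-like cells. Within the YD samples alone the log2 fold change of Tlr7 was 0.97 ± 0.0787, and within the CVS samples alone no receptor passed the filter. What these names stand for is not given.

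Tlr1 was at 51.1 to 249 CPM (median 97.6) against 65.6 to 111 CPM (median 75.9), higher in 11 of 13 samples with overlapping ranges. Its log2 fold change was 0.28 ± 0.0949 (edgeR, adjusted p = 0.0126). With classes from the marker gate the Tlr1 difference turned to -0.15 (adjusted p = 0.302), and over 9 alternatives its adjusted p ran from 0.0117 to 0.302. Tlr9 was at 0 to 65.8 CPM (median 30.3) against 13.4 to 44.5 CPM (median 22.0), higher in 10 of 13 samples with overlapping ranges. Its log2 fold change was 0.46 ± 0.159 (edgeR, adjusted p = 0.0162), and the adjusted p ran from 0.0116 to 0.113 over 9 alternatives.

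Of the 10 receptors, 3 passed the filter in this pair and all 3 were called higher in marginal zone B-like cells, beside 37.9% of all 6578 genes tested that were called in either direction with 18.9% called higher. In the fit without the filter, where 12.0% of genes were called, 4.93% higher and 7.11% lower, Tlr3 was higher by 1.66 ± 0.243 (edgeR, adjusted p = 1.6e-10) and Tlr4 by 0.81 ± 0.19 (edgeR, adjusted p = 0.000312). Tlr3 was at 0 to 65.4 CPM (median 14.8) against 0 to 6.64 CPM (median 2.75), higher in 9 of 13 samples. Tlr4 was higher in 9 samples and lower in 4. Together with Tlr7 these made 3 receptors called higher and none lower of the 10 in that fit, where Tlr1 and Tlr9 were not called (edgeR, adjusted p = 0.265 and 0.113). Tlr8 had 0 UMIs in marginal zone B-like and 8 in follicular B-like cells, too few for a fold.

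The pathway list of 51 genes, which holds adaptors, chaperones, kinases, transcription factors and inhibitors, had 39 genes tested in this pair. Of these, 11 were higher and 6 lower, a called share of 43.6% beside 37.9% of all genes in the fit with the filter. The median log2 fold change of the list was 0.03 beside -0.01 over all genes tested. Of the 12 accessory and trafficking genes tested, 7 were higher and 5 were not called, beside 18.9% of all genes called higher. The same role had 4 higher and 4 lower genes in the second pair and 9 lower in the third. In the fourth pair it had 6 higher and 3 lower, and in the fifth 4 higher and 3 lower. Cd36, a scavenger receptor that works with TLR2, was higher by 3.04 ± 0.139 (edgeR, adjusted p = 8.8e-36). The kinase gene Ikbke was higher by 1.22, the cathepsin gene Ctsb by 0.70, the TLR4-like surface protein gene Cd180 by 0.61 and the endosomal protease gene Lgmn by 0.51. Unc93b1, the chaperone that carries the nucleic acid receptors to endosomes, was higher by 0.37, and the factors Rel, Nfkb2 and Irf8 were lower by up to 0.30 on the log2 scale.

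**Figure D1:**
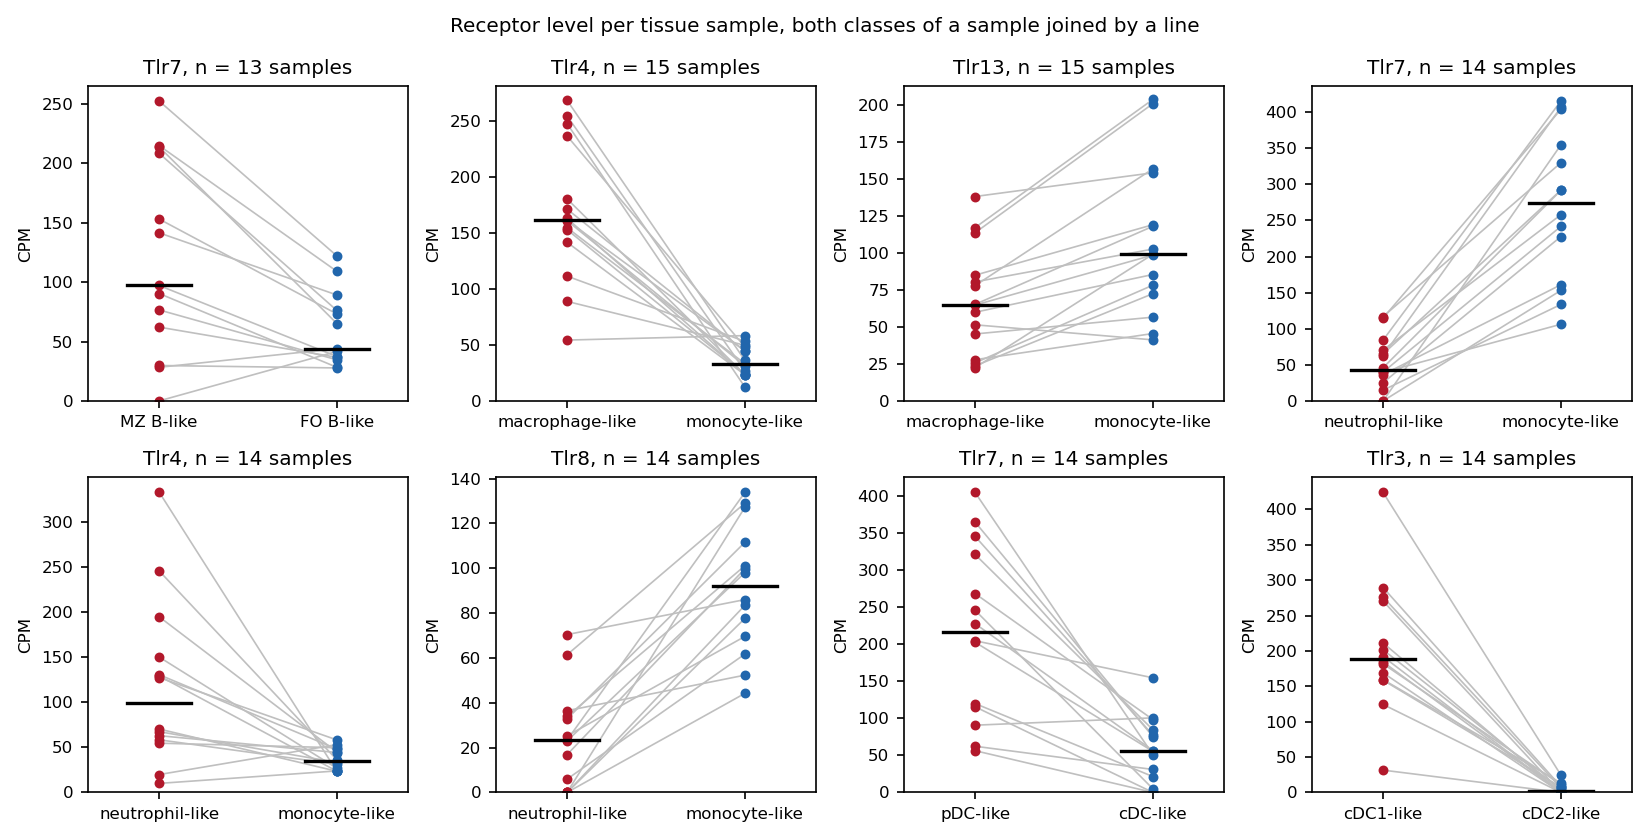
Receptor levels in CPM (y axis) per tissue sample for both classes of a pair, with a grey line joining the classes of 1 sample and a black bar at the median (MZ, marginal zone; FO, follicular; pDC, plasmacytoid DC; cDC, conventional DC). Lines slope the same way in all 14 samples for Tlr7 and Tlr8 between neutrophil-like and monocyte-like cells and for Tlr3 between cDC1-like and cDC2-like cells.

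The second pair set macrophage-like cells, the tissue phagocytes, against monocyte-like cells. Tlr4 and Tlr8 were higher in macrophage-like cells and Tlr7 and Tlr13 lower. Per sample, Tlr4 was at 54.3 to 268 CPM (median 161) against 12.4 to 58.3 CPM (median 33.2) over 15 samples. The macrophage-like value was the higher one in 14 of 15 samples, and 1 sample, CVS_C_4, had 54.3 against 58.3 CPM. The log2 fold change of Tlr4 was 2.20 ± 0.203 (edgeR, adjusted p = 8.3e-10). Tlr13 was at 22.5 to 138 CPM (median 64.7) against 41.2 to 204 CPM (median 99.1), lower in 14 of 15 samples with overlapping ranges. Its difference was -0.62 ± 0.13 (edgeR, adjusted p = 0.000197).

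Tlr7 and Tlr8 differed less between these classes. Tlr7 was at 83.5 to 330 CPM (median 181) against 106 to 416 CPM (median 258), lower in 13 of 15 samples, with a difference of -0.35 ± 0.0992 (edgeR, adjusted p = 0.00409). Tlr8 was at 28.3 to 211 CPM (median 127) against 44.2 to 134 CPM (median 86.7), higher in 10 of 15 samples, with a difference of 0.45 ± 0.156 (edgeR, adjusted p = 0.0154). Ranges of both genes overlap between the classes. Over 9 alternatives the adjusted p ran from 0.000533 to 0.254 for Tlr7 and from 5.7e-05 to 0.289 for Tlr8.

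In this pair 4 receptors passed the filter and all 4 were called, 2 higher and 2 lower, where 60.0% of the 4072 genes tested were called, 29.4% higher and 30.6% lower. Tlr4 reached the filter's level in 14 macrophage-like but only 5 monocyte-like samples, so nothing is read from these counts beside that share. Without the filter, where 19.9% of genes were called, 8.94% higher and 10.9% lower, Tlr3 was higher by 1.83 ± 0.772 (edgeR, adjusted p = 0.0308) on 26 against 7 UMIs, and Tlr8 was no longer called. In the same fit Tlr5 was lower by 3.33 on the log2 scale on 3 against 88 UMIs (edgeR, adjusted p = 5.5e-09), a ratio of 0.0625 with a counting interval of 0.0126 to 0.189. Tlr1, Tlr2, Tlr6 and Tlr9 were not called in it.

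In the pathway list 33 genes were tested, 7 of them higher and 17 lower in macrophage-like cells. The called share was 72.7%, beside 60.0% of all genes in the fit with the filter. The median log2 fold change of the list was -0.32 beside -0.02 over all genes tested. The lysosomal protease genes Lgmn and Ctsb were higher by 2.38 and 1.80 on the log2 scale. Lower were the IκB kinase genes Ikbkb, at -1.78, and Ikbke, at -1.66, and Nfkbiz, an inducible NF-κB cofactor, at -1.64. Of 7 transcription factor genes, 5 were lower and Irf8 was higher, beside 30.6% of all genes called lower and 29.4% called higher. The chaperone genes Unc93b1 and Hsp90b1 were higher, by 0.62 and 0.59.

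The third pair set neutrophil-like cells, the short-lived granulocytes, against the same monocyte-like cells, which the second pair also used. Tlr7 and Tlr8 were lower and Tlr4 higher in neutrophil-like cells, and Tlr13 was not called. Per sample, Tlr7 was at 0 to 117 CPM (median 43.0) against 106 to 416 CPM (median 275), lower in 14 of 14 samples. The highest neutrophil-like sample still lay above the lowest monocyte-like one. The difference was -2.45 ± 0.188 (edgeR, adjusted p = 1.8e-13). Tlr8 was at 0 to 70.4 CPM (median 23.2) against 44.2 to 134 CPM (median 92.0), also lower in 14 of 14 samples, with a difference of -1.94 ± 0.264 (edgeR, adjusted p = 6.4e-08).

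Tlr4 was at 10.0 to 333 CPM (median 98.9) in neutrophil-like cells and 23.3 to 58.3 CPM (median 34.7) in monocyte-like cells, higher in 12 of 14 samples. Its difference was 1.56 ± 0.271 (edgeR, adjusted p = 4.6e-06), and 0.81 with the marker gate (adjusted p = 0.0192). In 2 samples the order was the other way, YD_C_1 with 10.0 against 23.9 CPM and CVS_S_6 with 19.8 against 53.1 CPM, each on 1 Tlr4 UMI among the neutrophil-like cells. Tlr13 was at 0 to 241 CPM (median 87.7) against 41.2 to 204 CPM (median 101), with a difference of -0.08 ± 0.194 (edgeR, adjusted p = 0.715). With the marker gate it was lower, at -0.82 (adjusted p = 0.00351), and over 9 alternatives its adjusted p ran from 0.00351 to 0.999.

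Here 4 receptors passed the filter, with 1 called higher and 2 lower, where 72.5% of the 3521 genes tested were called, 33.2% higher and 39.4% lower. Nothing is read from these counts beside that share, since the called receptors passed the filter mainly through the class where they were high. Tlr4 reached the filter's level in 12 neutrophil-like samples and 1 monocyte-like sample, Tlr7 in 7 and 14, and Tlr8 in 2 and 11. In the fit without the filter, where 29.5% of genes were called, 10.8% higher and 18.7% lower, Tlr6 was higher by 1.30 ± 0.299 (edgeR, adjusted p = 5.2e-05) and Tlr1 lower by 1.03 on the log2 scale (adjusted p = 0.00553). Tlr9 had 2 UMIs in neutrophil-like and 104 in monocyte-like cells, a ratio of 0.0585 with a counting interval of 0.007 to 0.217, and was called lower in that fit (edgeR, adjusted p = 2.5e-10). Tlr2 was at 0.72 ± 0.31 and missed the threshold (edgeR, adjusted p = 0.0563). Tlr5 was higher by 1.35 (edgeR, adjusted p = 1.4e-05), the same direction as Tlr4 and Tlr6.

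The pathway list had 33 genes tested here, 2 higher and 24 lower in neutrophil-like cells. The called share was 78.8%, beside 72.5% of all genes in the fit with the filter. The list median was -1.05 beside -0.10 over all genes tested. Lgmn was lower by 4.44 on the log2 scale, and -4.09 was the value for Ly86, which encodes the partner of CD180. The cathepsin gene Ctss was at -3.97, and the interferon regulatory factor genes Irf8 and Irf5 were at -3.73 and -3.65. Unc93b1 was at -1.14. The inhibitor gene Irak3 and the ubiquitin ligase gene Traf3 were the 2 that were higher, by 0.35 and 0.24. Median depth was 1300.5 UMIs in neutrophil-like and 2512 in monocyte-like cells, and the part of depth in these differences was not tested.

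The fourth pair set pDC-like cells, known as producers of type I interferon, against conventional DC-like cells (cDC1-like and cDC2-like together). Tlr7 was the 1 receptor that passed the filter, and it was called higher, where 52.8% of the 3691 genes tested were called, 25.9% higher and 26.9% lower. The 13 pDC-like samples at the filter's level were enough for Tlr7 to pass, beside 9 conventional DC-like ones, so nothing is read from this 1 call beside that share. Per sample it was at 56.3 to 404 CPM (median 216) against 0 to 155 CPM (median 55.9) over 14 samples. It was higher in 13 of 14 samples, with CVS_S_2 at 90.6 against 101 CPM, and the ranges overlap. The difference was 1.88 ± 0.207 (edgeR, adjusted p = 2.7e-10).

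In the fit without the filter, where 17.0% of genes were called, 6.71% higher and 10.3% lower, Tlr9 was higher in pDC-like cells by 0.88 ± 0.282 (edgeR, adjusted p = 0.00987), in 8 of 14 samples. Tlr3 had 2 UMIs in pDC-like and 261 in conventional DC-like cells, a ratio of 0.0149 with a counting interval of 0.00179 to 0.0543. Tlr13 had 0 against 159 UMIs, with a counting interval of the ratio from 0 to 0.0456. Its values were 0 CPM in all 14 pDC-like samples and 13.9 to 72.2 CPM in the conventional DC-like ones, without overlap. Tlr1 was lower by 2.06 on the log2 scale (edgeR, adjusted p = 4.4e-10), in 14 of 14 samples. Tlr12 was at 0.22 ± 0.446 and was not called. Tlr11 had 0 against 317 UMIs, with a counting interval of the ratio from 0 to 0.0227. In all, 2 receptors were called higher and 3 lower in that fit.

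Of the pathway list, 30 genes were tested here, 9 higher and 14 lower. The called share was 76.7%, beside 52.8% of all genes in the fit with the filter. The list median was -0.26 beside 0.00 over all genes tested. Ctsl, a cathepsin gene, was higher by 6.07 ± 0.277 (edgeR, adjusted p = 5.9e-22) and Ctsb by 2.44. Irf7, the factor that drives type I interferon genes after TLR7 and TLR9, was higher by 1.92, Irf8 by 1.84 and Cd180 by 1.44. Unc93b1 was higher by 0.58. Of 6 transcription factor genes, the 4 genes Irf5, Nfkb1, Nfkb2 and Rel were lower, beside 26.9% of all genes called lower.

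The fifth pair set cDC1-like against cDC2-like cells, which are also the 2 parts of the conventional DC-like class above. Tlr3 was the 1 receptor that passed the filter and it was called higher in cDC1-like cells, where 46.7% of the 1793 genes tested were called, 23.9% higher and 22.8% lower. Per sample it was at 31.5 to 424 CPM (median 188) against 0 to 24.6 CPM (median 1.86), higher in 14 of 14 samples. The lowest cDC1-like sample lay above the highest cDC2-like one, and 7 of the cDC2-like samples had no Tlr3 UMI. The difference was 5.02 ± 0.288 (edgeR, adjusted p = 7.5e-17). Tlr3 passed the filter only through the cDC1-like class, with 233 against 12 UMIs, so nothing is read from this 1 call beside the share of all genes called.

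Without the filter, where 9.38% of genes were called, 3.25% higher and 6.13% lower, Tlr12 was higher in cDC1-like cells by 3.01 ± 0.677 (edgeR, adjusted p = 8.9e-06) on 32 against 7 UMIs. Per sample, Tlr12 was at 0 to 63.4 CPM (median 27.8) in cDC1-like and 0 to 15.9 CPM (median 0) in cDC2-like cells, higher in 10 of 14 samples and lower in none. Tlr7 was lower in cDC1-like cells by 2.64 on the log2 scale (edgeR, adjusted p = 1.9e-11) on 16 against 203 UMIs, and Tlr1 by 1.95 (edgeR, adjusted p = 9.0e-07). Tlr13 was at 0.07 ± 0.337 (edgeR, adjusted p = 0.953). Tlr11 was higher by 2.97 ± 0.247, at 61.5 to 343 CPM against 7.48 to 55.3 CPM without overlap. Tlr5 had 0 UMIs in cDC1-like cells against 112, with a counting interval of the ratio from 0 to 0.0626. Of the 10 receptors, 2 were called higher and 2 lower in that fit.

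Of the pathway list, 21 genes were tested in this pair, 8 higher and 8 lower. The called share was 76.2%, beside 46.7% of all genes in the fit with the filter. The list median was -0.13 beside 0.04 over all genes tested. Irf8, the factor on which cDC1 depend, was higher by 3.72 ± 0.163 (edgeR, adjusted p = 3.2e-19), and the chaperone gene Hsp90b1 by 1.13. Lower were Nfkbiz at -1.50, Rel at -1.42 and Ly86 at -1.10. Unc93b1 was higher by 0.56.

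**Figure D2:**
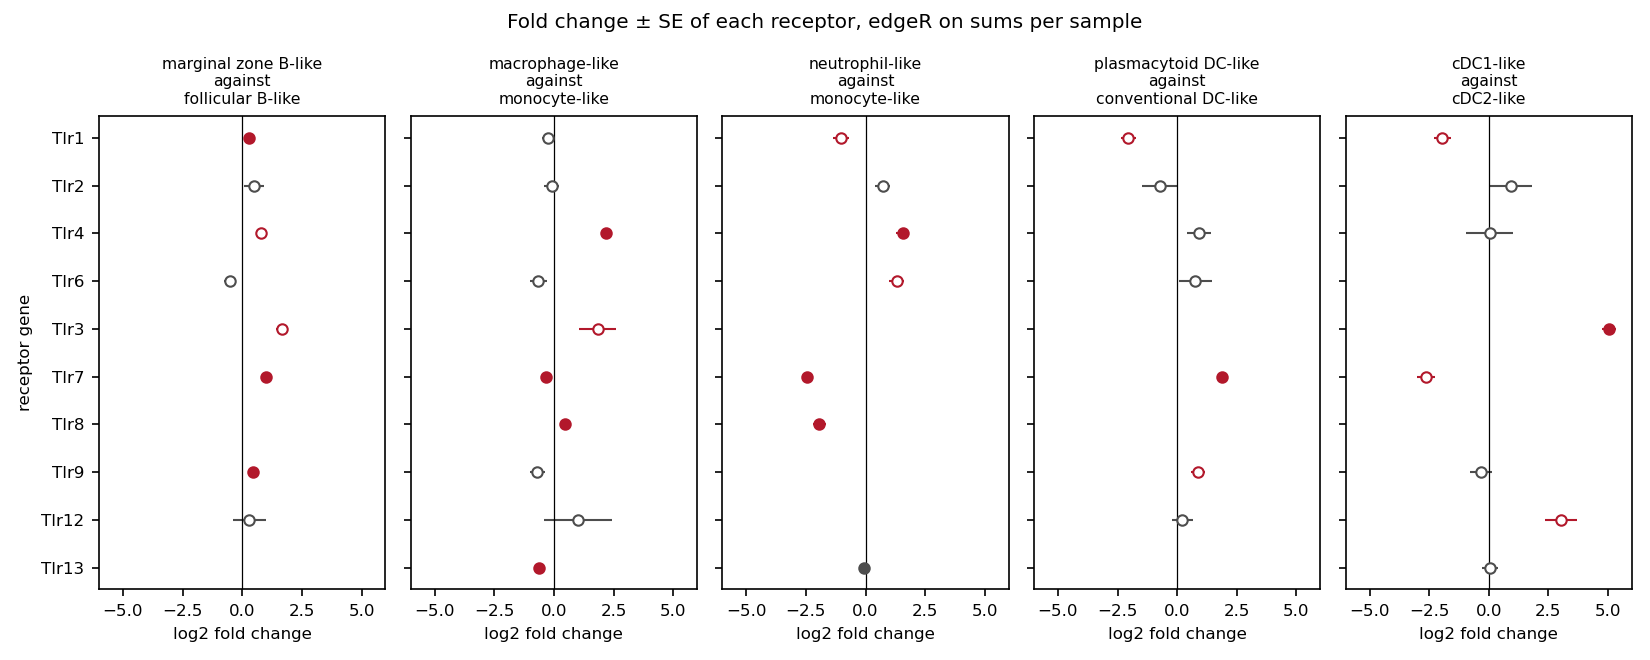
Log2 fold change (x axis) ± SE of each receptor in the 5 pairs. Filled points passed the low-count filter, open points come from the fit without it, red points have an adjusted p under 0.05, and receptors with 3 or fewer UMIs in a class are left out. Tlr3 at 5.02 in the cDC1-like against cDC2-like pair lies farthest to the right.

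Clusters within a class differed in receptor level as well. These clusters were picked by a stage gene after values had been seen, and they are described with no test. Neutrophil-like cells fell into a cluster of 511 cells with Csf3r, the receptor gene for granulocyte colony-stimulating factor, at 7616 CPM and 711 cells with 1028 CPM. In the Csf3r-high cluster Tlr13 was at 75.5 to 394 CPM (median 229) over 10 samples, and in the others at 0 to 85.0 CPM (median 40.1), higher in 10 of 10. Tlr4 was at 0 to 361 CPM (median 290) against 0 to 111 CPM (median 36.9), higher in 9 of 10. Tlr2 and Tlr6 were higher in 8 of 10 samples each. Median depth outside ribosomal RNA was 1046 UMIs in the Csf3r-high cells and 1141 in the others. With ribosomal RNA, and before barcodes were dropped, the medians were 1151 and 1443 UMIs.

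Monocyte-like cells held a cluster of 787 cells with Ace, a gene of the patrolling monocyte, at 1479 CPM, while the next cluster had 685 CPM. Tlr7 was at 153 to 658 CPM (median 345) in that cluster and 74.3 to 423 CPM (median 219) in the other monocyte-like cells, higher in 14 of 15 samples. Tlr9 was at 0 to 53.1 CPM (median 0) against 7.95 to 45.8 CPM (median 25.1), lower in 14 of 15, and Tlr1 and Tlr5 were also lower in 14 of 15. Tlr8 was higher in 12 of 15 samples. All these ranges overlap between samples.

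A cluster of 736 follicular B-like cells was led by interferon-induced genes, with Mx1 at 400 CPM beside 4.85 CPM in the other follicular B-like cluster. Tlr7 was at 20.5 to 309 CPM (median 240) in it and 25.4 to 96.5 CPM (median 61.1) in the other 8190 cells, higher in 8 of 9 samples. Tlr3 was at 0 to 35.4 CPM (median 17.0) against 1.15 to 3.86 CPM (median 2.69), higher in 7 of 9. Tlr9 was higher in only 4 of 9 samples. Without this cluster the marginal zone B-like against follicular B-like difference of Tlr7 was 1.28 ± 0.0884 instead of 0.99.

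**Figure D3:**
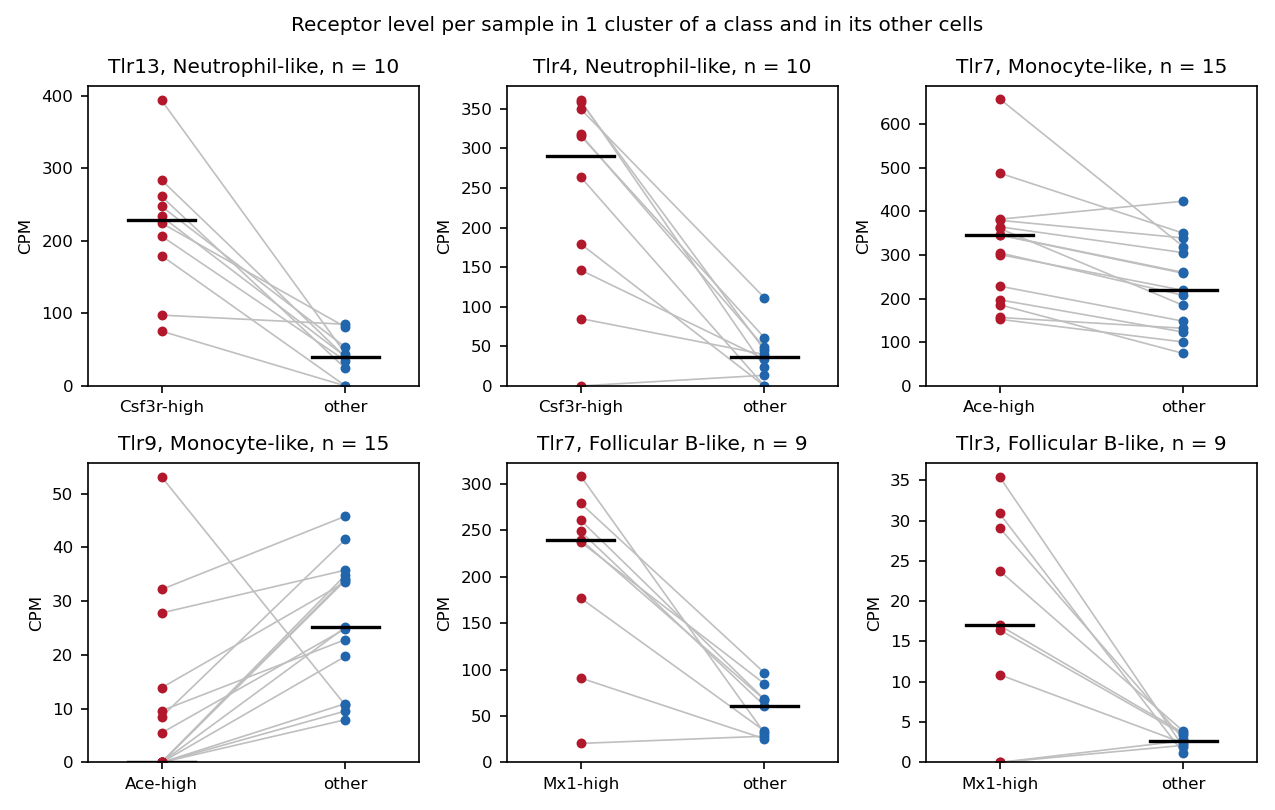
Receptor levels in CPM (y axis) per sample in 1 cluster of a class (red) and in its other cells (blue), with a grey line joining 1 sample and a black bar at the median. The Csf3r-high neutrophil-like cells lie above the others for Tlr13 in all 10 samples, and the Ace-high monocyte-like cells lie below the others for Tlr9 in 14 of 15.

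In the thymic wells the receptor with the highest level in T lineage cells was Tlr12, followed by Tlr7, and each of the other 8 receptors was at or below 1.34 CPM in both libraries. Tlr12 was at 5.47, 7.79, 7.51 and 7.38 CPM in thymic samples 1 to 4 of the WT library, a mean of 7.04 ± 1.06 (SD, n = 4 samples), from 955 UMIs. In the Mini library it was at 8.54, 7.36, 6.95 and 6.35 CPM in T-1-A, T-1-B, T-2-A and T-2-B, a mean of 7.30 ± 0.927, from 442 UMIs. The ranges of the libraries overlap. Per kilobase of exon, with introns again left out, Tlr12 was at 2.29 CPM in both libraries and Tlr7 at 1.03 and 1.16 CPM. The T-like and thymocyte-like cells of the other wells, at 4.27 and 4.38 CPM, are set beside these values with no test because the conditions of those wells are not given.

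Tlr7 was at 4.20 CPM in the WT and 4.72 CPM in the Mini T lineage, and Tlr1 at 1.34 and 0.757 CPM. Tlr2, Tlr4 and Tlr6 lay between 0.181 and 0.840 CPM in both libraries. Tlr3, Tlr8, Tlr9 and Tlr13 were at or below 0.214 CPM in each, and Tlr13 in the Mini library rested on 1 UMI.

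By stage, Tlr12 ran from 4.14 to 10.7 CPM over the WT T lineage clusters with at least 5 of its UMIs and was highest in clusters with high Rag1, a recombinase gene of developing thymocytes. The cluster with 10.7 CPM of Tlr12 had 1282 CPM of Rag1, and the one with 9.45 CPM had 1582 CPM. In the Mini library the highest cluster had 11.4 CPM of Tlr12 and 1544 CPM of Rag1. The proliferating cluster with 1896 CPM of Mki67 had 4.14 CPM of Tlr12 in the WT library.

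Tlr7 and Tlr1 had the other pattern. In the T lineage cluster with the highest S1pr1, the receptor gene for leaving the thymus, Tlr7 was at 21.7, 14.3, 13.5 and 16.3 CPM in WT samples 1 to 4, and in the other T lineage cells at 4.02, 4.25, 2.68 and 2.69 CPM. In the Mini samples it was at 23.0, 31.3, 26.8 and 25.4 CPM against 4.22, 2.92, 3.89 and 2.74 CPM. Values of the cluster lay above those of the other cells in 4 of 4 samples of each library and did not overlap with them. Tlr1 was at 6.46, 5.43, 8.98 and 3.65 CPM in the WT cluster and 0.86 to 1.05 CPM in the other cells, and in the Mini library at 6.34 to 8.17 against 0.27 to 0.50 CPM. Tlr12 was lower in the S1pr1-high cluster in 4 of 4 WT and 3 of 4 Mini samples. The WT cluster also had Ccr7, a chemokine receptor gene of mature thymocytes, at 361 CPM.

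**Figure D4:**
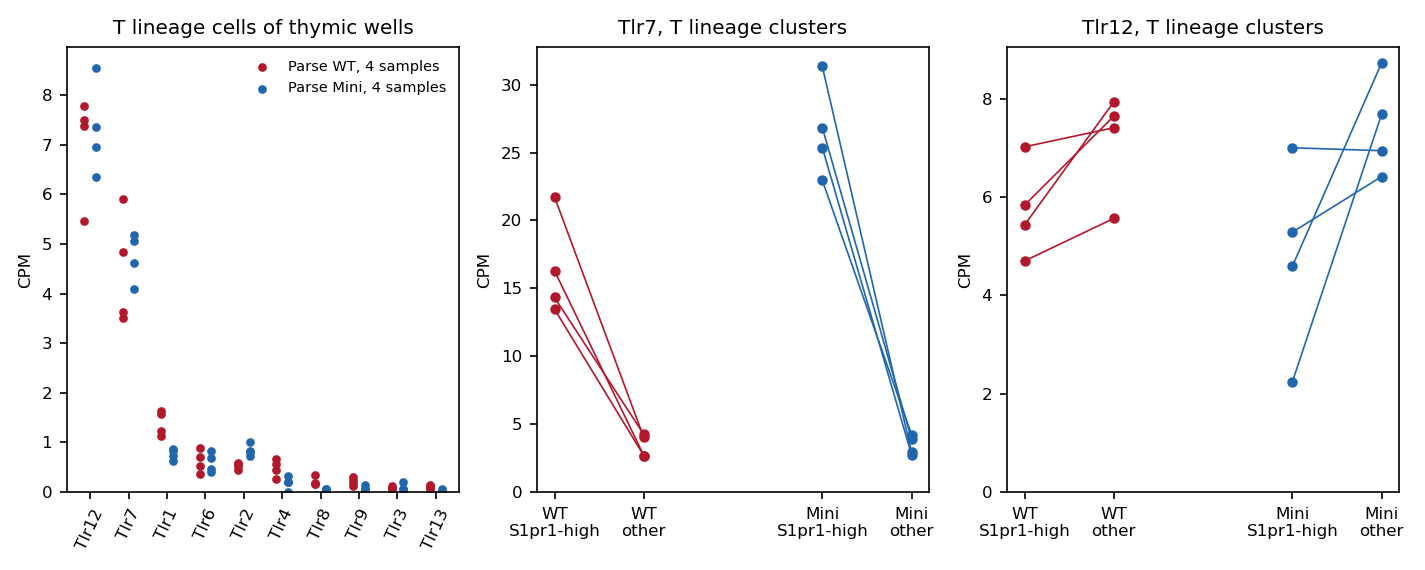
Receptor levels in CPM (y axes) in T lineage cells of the 4 WT (red) and 4 Mini (blue) thymic samples, for all 10 receptors at the left and for Tlr7 and Tlr12 in the S1pr1-high cluster and the other T lineage cells at the middle and right, with lines joining 1 sample. Tlr12 lies between 5.47 and 8.54 CPM over the samples, and Tlr7 is higher in the S1pr1-high cluster than in the other T lineage cells in each of them.

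Few thymic cells belonged to the classes that carried the receptors in the other wells. The 267 B-like cells of the WT thymic wells had Tlr7 at 63.4 CPM (55.3 to 71.4 over 4 samples), and the 82 of the Mini library at 155 CPM (99.3 to 219). The 80 pDC-like cells had Tlr7 at 85.6 CPM, Tlr12 at 28.5 CPM (16 UMIs) and Tlr9 at 16.1 CPM (9 UMIs). The 66 cDC1-like cells had Tlr3 at 56.9 CPM (25 UMIs), Tlr11 at 36.4 CPM, Tlr9 at 31.9 CPM and Tlr12 at 29.6 CPM. In the 35 cDC1-like cells of the Mini library Tlr3 was at 87.2 CPM (17 UMIs) and Tlr12 at 25.7 CPM (5 UMIs).

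Tlr2, low in the other wells, was at 98.6 CPM in the 50 monocyte-like cells of the WT thymic wells (33 UMIs; 57.8 to 119 CPM over 3 samples) and at 112 CPM in the 28 of the Mini library (18 UMIs). Monocyte-like cells of the other wells had 17.5 CPM of Tlr2, with a highest sample of 49.5 CPM, and no test was made between wells. The 2 classes also differed in make-up. The WT thymic cluster was led by Lyz2, Tgfbi, Fn1, Csf1r, C1qa and Spon1, of which C1qa is on the macrophage marker list. The class of the other wells pooled clusters with Ccr2, Ace and Spon1 among their leading genes, at median depths of 2546, 2164 and 3009 UMIs. The 19 macrophage-like cells had Tlr4 at 103 CPM (13 UMIs). These thymic non-T clusters also carried Rag1, at 427 CPM in the monocyte-like, 171 CPM in the cDC1-like and 269 and 534 CPM in the pDC-like clusters, and its part in the receptor values was not tested. Before barcodes were dropped, their median depths were 12988 UMIs in the monocyte-like, 9213 in the cDC1-like and 4272 and 18513 in the pDC-like clusters. Sample medians of the WT thymic wells were 3227 to 4263 UMIs. The part of remaining doublets in these receptor values was not tested.

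The genes whose level varied most like a receptor over 20 classes of the other wells were listed by Pearson's r of log2(CPM + 1). This is a description over classes that share libraries and depth. The B cells of the 1-sample clusters and those without a subset each counted as a class here. Tlr13 was most like Il1b (r = 0.970), Tgfbi (0.966) and Igsf6 (0.962). Tlr9 was most like Ly86 (0.936), Ifi30 (0.936) and Slc15a4 (0.926), of which Ly86 and Slc15a4 are on the pathway list. For Tlr8 the closest were Csf1r (0.919), Tfec and Pilra, and for Tlr1 Ripk2 (0.875), Rel and Mycbp2. Tlr6 had Tesk2 (0.871), Map3k5 and Naa60, and Tlr7 had Slc16a7 (0.860), Rnh1 and a gene listed without a symbol. Closest to Tlr3 were Zfp282 (0.838), Naaa and Gusb, and Naaa was itself a marker of the cDC1-like class. Tlr4 had Ugp2 (0.836), Snx27 and Tpcn2, and Tlr12 had Dync1li2, Zfhx2os and Lzts1, none above 0.772.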

How the data were processed

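The authors ran split-pipe on the Parse reads against mm10 and deposited a matrix of raw UMI counts, not normalized. For its version and strand setting the sources used here give nothing. A cell table named each barcode's tissue sample. All barcodes of a set were clustered together (leidenalg 0.10.2, Python 3.11.15) on 2000 variable genes without the receptors and pathway genes. Only after that were barcodes under 500 or over 25000 UMIs or above 15% mitochondrial UMIs dropped. Barcodes dropped later thus took part in forming and naming the clusters. Called doublets were then removed by a rebuilt caller (1.93% of the other wells, 4.81% of the WT and 5.04% of the Mini thymic wells). Their number per sample was set beforehand by the expected share of barcodes with 2 or more cells. These shares therefore measure no doublet rate. The study's own doublet calls took several-fold larger shares of both libraries, so cells that it would have called doublets can remain here. Clusters were named where at least 3 markers were raised 1.5-fold or more with at least 10 UMIs, with further limits set after the clusters were seen. CPM left out 3 ribosomal RNA genes. Summed counts were tested with edgeR 4.0.16 (filterByExpr, TMM, sample as block, adjusted p threshold 0.05, two-sided) in R 4.3.3. DESeq2 1.42.0 was an alternative. The test was checked on counts simulated for the macrophage-like and monocyte-like pair, with genes that passed the filter. The other pairs and the fit without the filter were not checked in this way. Motifs and stage clusters were chosen after seeing the data. The blocks are tissue samples that gave both classes. The members and lists were chosen with earlier results of these data known. Named were the 10 receptors with Tlr5 and Tlr11, up to 5 pathway genes called with the largest change in each pair and the 3 genes most like each receptor, of which those for Tlr2 are not reported here. Unc93b1, Hsp90b1, Rel, Nfkb2, Irf8, Irf5, Nfkb1, Irak3 and Traf3 in some pairs, and the stage genes Csf3r, Ace, Mx1, S1pr1, Ccr7, Rag1 and Mki67, were named after values were seen. Which roles of the pathway list were counted in a pair was not set beforehand.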

Additional observations from a re-analysis of the deposited data

Results flagged for a closer look

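In T lineage cells of the thymic wells, 20 sets of 4 samples (10 receptors in each of 2 libraries) were searched for a sample far from the others by Dixon's 95% critical value, which chance passes in about 1 in 20 sets. Tlr8 in WT thymic sample 2 stood apart at 0.348 CPM, with the other 3 samples between 0.156 and 0.189 CPM. Tlr13 in the Mini sample T-1-A stood apart at 0.0684 CPM, which is 1 UMI, with the other 3 samples at 0.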

How the results depend on the processing

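Counts of genes called moved most with the filter and the samples. Without the low-count filter, 4511 genes were called between macrophage-like and monocyte-like cells (2443 with it), 6445 between neutrophil-like and monocyte-like cells (2554), 3658 between pDC-like and conventional DC-like cells (1948) and 1827 between cDC1-like and cDC2-like cells (837). Within the samples named CVS, an alternative chosen after seeing the data as was that within the samples named YD and that without the interferon-led follicular cluster, 519 genes were called between marginal zone B-like and follicular B-like cells (2492 in all samples), 1506 between macrophage-like and monocyte-like cells and 1084 between pDC-like and conventional DC-like cells. Within the samples named YD the counts of these 3 pairs were 3227, 2979 and 1996, and the cause of the difference between the sets was not tested.

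Without the sample as a block, 1683, 2379, 2566, 1907 and 786 genes were called in the 5 pairs, in the order of the report. Classes of the same tissue sample are paired by construction. Without the block Tlr1 and Tlr9 in marginal zone B-like cells (adjusted p = 0.060 and 0.067) and Tlr7 in macrophage-like cells (0.144) were no longer called by edgeR.

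Among single receptors, Tlr1 between marginal zone B-like and follicular B-like cells reversed to -0.15 under the marker gate, and the cause was not tested. Tlr7 in macrophage-like cells was not called within the CVS samples, nor Tlr8 within either set of samples. The calls of Tlr4 in the 2 myeloid pairs, of Tlr7 in the other 3 pairs that tested it, of Tlr8 in neutrophil-like cells, of Tlr13 in macrophage-like cells and of Tlr3 between the cDC classes kept their direction and side of the threshold in every alternative that gave a value. None was given, because the receptor missed the filter, for Tlr3 between the cDC classes under the marker gate or within CVS. The same held for Tlr4 in macrophage-like cells within CVS and in neutrophil-like cells within YD. It also held for Tlr7 in marginal zone B-like and pDC-like cells within CVS. Such alternatives could not count against a call. As given above, Tlr3, Tlr4 and Tlr8 passed the filter in these pairs mainly through the class where they were high. The class with the highest share of cells was the same for only 5 of 10 receptors without thinning, and that with the highest CPM for 9 without the upper UMI limit and 7 with the marker gate. Under that gate 4 highest levels moved by over 1.5 times, Tlr1 in marginal zone B-like cells to 55.8 CPM (100.2), Tlr3 in cDC1-like cells to 132 (212), and Tlr6 and Tlr13 in neutrophil-like cells to 23.2 (38.0) and 61.2 (113). Tlr12 in the WT thymic T lineage, 7.29 CPM when summed over 4 samples, ran from 7.11 to 7.54 CPM with each sample left out. Receptors that missed the filter had too few UMIs for the filtered fits, and the part of depth in that was not tested.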
